A study of Mus musculus with 7 samples.

Results

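Keratinocytes of the basal layer are fastened to the basement membrane by hemidesmosomes and by laminin-binding integrins. The 9 genes described here code for pieces of that attachment: the integrin subunits Itga3, Itga6, Itgb1 and Itgb4, the transmembrane collagen Col17a1, the laminin chains Lama3 and Lamb3, the plaque protein Dst and the anchoring fibril collagen Col7a1. They were taken by symbol, from a list made with earlier results of these data known. All 9 were among the 26383 genes of the keratinocyte table. RNA of single cells was read by droplet sequencing from the 5′ end, with unique molecular identifiers (UMIs) that count captured molecules. The keratinocytes were CD45neg cells sorted from ear epidermis 3 weeks after transplantation. The hosts were male CD45.2 C57BL/6 mice that had been lethally irradiated and given bone marrow (BMT) from female CD45.1 C57BL/6 donors. The label of 1 library gives the marrow alone, and that of the other library gives marrow plus T cells (written BMT + T cells). The design text of the series speaks of CD4 T cells and of CD8 T cells called Matahari without naming libraries, and the study's account of these keratinocytes speaks of mice given T cells, so the library labelled BMT may have had them too. The comparison is between labels. Epidermis of several mice was pooled in the study. With 1 library per label there is no replicate, and no p-value is given for any comparison. Intervals are exact at 95% and cover counting error only.

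Integrin α6β4, made of the Itga6 and Itgb4 products, binds laminin-332 outside the cell and the hemidesmosomal plaque inside it. The Col17a1 product spans the membrane at the same structure, and the epithelial form of the Dst product (also called BPAG1) ties the plaque to keratin filaments. The Lama3 and Lamb3 products are chains of laminin-332, and the Col7a1 product forms the fibrils that anchor the basement membrane to the dermis. Integrin α3β1, of the Itga3 and Itgb1 products, binds the same laminin but sits in focal adhesions. Inherited loss of several of these proteins causes skin blistering, and the Col17a1 and Dst products are the autoantigens of bullous pemphigoid. Cells that leave the basal layer to differentiate give up this contact.

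The stretches just before the start sites of 2 of the genes are shown, since Col17a1 gave the largest count of UMIs among the 9 and since Dst has more than 1 start, which the gene's single row in the table cannot tell apart. They come from RefSeq, build GRCm38.p6, the build named in the submitters' processing notes being GRCm38. Each line gives the 100 bases before an annotated transcript start, 5′ to 3′ on the gene's strand. Col17a1 spans chromosome 19, 47646341 to 47692042, minus strand, and Dst spans chromosome 1, 33907888 to 34308662, plus strand. Both Dst starts shown lie inside that span, and upstream and downstream name only their order. No window was at hand for the 5′ end of the span. Capitals mark TATAAA in Col17a1 and GGGCGG in Dst, each searched on both strands.
Col17a1 (chr19:47692043-47692142, minus strand): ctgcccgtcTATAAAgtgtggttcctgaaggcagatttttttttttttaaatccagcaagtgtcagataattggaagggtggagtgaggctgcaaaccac
Dst, upstream start (chr1:34011495-34011594, plus strand): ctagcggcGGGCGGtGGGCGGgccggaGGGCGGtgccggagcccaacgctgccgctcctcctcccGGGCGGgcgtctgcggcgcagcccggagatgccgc
Dst, downstream start (chr1:34160160-34160259, plus strand): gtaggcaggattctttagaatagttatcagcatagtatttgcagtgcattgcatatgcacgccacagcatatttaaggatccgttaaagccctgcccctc

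Windows of 300 bases (250 before a start, 50 after it) were at hand for 6 of the 9 genes, 9 windows in all. The upstream Dst window held 4 GGGCGG and had a GC content of 70.3%, and the downstream one held none of the motifs searched and was at 46.0%. The Col17a1 window held 2 TATAAA and no GGGCGG. Over 32851 promoter windows of the same length, 35.7% held GGGCGG, 13.6% held TATAAA and 7.81% held TGANTCA, the AP-1 motif. That last motif was found in 1 Itga3 window and in none of the other 8. GGGCGG was also in both Itga3 windows and in those of Itgb1 and Col7a1. These are matches of letters, and binding was not measured.

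The keratinocyte libraries held 2836 cells under BMT and 2590 under BMT + T cells. The median cell had 8895.5 UMIs in the former and 8834 in the latter, and 2 barcodes were shared. The authors divided them into 5 clusters. Basal held 1684 and 1712 cells, Follicular 278 and 259, Differentiated 493 and 353, KC_Four 225 and 150, and KC_Five 156 and 116. Levels are given below as UMIs per 10000 UMIs of the same cells (CP10K), BMT first. The cluster names were checked against keratin genes. Krt14, a keratin of the basal layer, was at 395.8 and 379.5 CP10K in Basal against 108.7 and 107.8 in Differentiated. Krt10, a keratin of the layers above, was at 154.3 and 142.8 in Differentiated against 6.19 and 8.92 in Basal. KC_Four and KC_Five expressed the division gene Mki67 at 4.59 to 6.54 CP10K and are called cycling here. Cdc20 was at 4.33 and 4.57 in KC_Four and at 8.75 and 8.63 in KC_Five, against 0.412 and 0.301 in Basal. Top2a was at 7.03 and 7.94 in KC_Four but at 0.565 and 0.930 in KC_Five, against 0.467 and 0.333 in Basal. Beside its basal, differentiated and follicular clusters, the study names a cycling cluster, by Mki67, and a cluster of putative Cdc20+ stem cells. Calling both KC_Four and KC_Five cycling is a shorthand used here and not the study's naming. The Follicular cluster held Krt79 at 26.7 and 24.98 CP10K, but also the fibroblast gene Dcn at 2.36 and 2.37, against at most 0.0283 in Basal. Summed over 5 fibroblast markers, Follicular stood at 3.04 and 3.27 CP10K, with 0 of the 5 at 0, and Dcn made up most of that sum. Summed over 3 melanocyte markers, it stood at 0.711 and 1.12 CP10K, against 0.0660 and 0.0355 in Basal. The part of such cells in the Follicular values was not tested. The leukocyte marker Ptprc had no UMI in Basal of the BMT library and was at 0.00197 CP10K in that of BMT + T cells.

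The hemidesmosomal integrin genes were highest in Basal and were detected in every cluster of both libraries. Itga6 stood at 3.40 (3.31 to 3.49) and 3.69 (3.60 to 3.79) CP10K in Basal. It was at 2.74 and 2.59 in KC_Five, 2.02 and 2.10 in KC_Four, 1.37 and 1.503 in Follicular, and 1.31 and 1.52 in Differentiated. The Follicular and Differentiated intervals of Itga6 overlapped in both libraries. Itgb4 was at 2.19 (2.12 to 2.27) and 2.25 (2.17 to 2.32) CP10K in Basal. It was near 1.7 in both cycling clusters, at 0.937 and 1.30 in Follicular, and at 0.569 and 0.682 in Differentiated. The subunits of the same receptor thus separated in differentiated cells, where 38.4% (35.5 to 41.6) and 41.3% (37.8 to 45.0) of the basal Itga6 level was found and 26.0% (23.0 to 29.2) and 30.4% (26.6 to 34.5) of that of Itgb4.

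The subunits of α3β1 differed from each other in the same cells. Itga3, the laminin-binding chain, was at 0.593 (0.555 to 0.634) and 0.665 (0.625 to 0.707) CP10K in Basal and at 0.0339 (0.0201 to 0.0536) and 0.0613 (0.0388 to 0.0919) in Differentiated, on 18 and 23 UMIs. It was the gene with the lowest remaining share in Differentiated, 5.72% (3.37 to 9.09) and 9.21% (5.81 to 13.9) of its basal level. Itgb1, which also pairs with many other α chains, was at 23.8% (20.8 to 27.2) and 29.0% (25.2 to 33.2) of its basal level, with 1.91 and 2.08 CP10K in Basal and 0.454 and 0.602 in Differentiated. In Follicular, Itgb1 stayed at 72.1% and 72.7% of its basal level, while Itga3 was at 27.3% (19.5 to 37.4) and 47.9% (37.2 to 60.8). In KC_Five both chains were within counting error of Basal, Itga3 at 84.7% (66.5 to 106.6) and 94.0% (73.9 to 118.1) and Itgb1 at 90.9% (80.0 to 102.9) and 90.4% (78.9 to 103.1).

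Col17a1 and Dst, the transmembrane collagen and the plaque linker, kept the largest shares in differentiated cells. The Col17a1 interval overlapped that of Lama3 in both libraries. Col17a1 was at 10.45 (10.3 to 10.6) and 11.6 (11.4 to 11.8) CP10K in Basal and gave 15518 of the 32958 UMIs of the 9 genes there in the BMT library and 17632 of 37017 in BMT + T cells. In Differentiated it was at 4.82 and 6.07 CP10K, or 46.1% (44.2 to 48.1) and 52.3% (50.1 to 54.7) of Basal. Its lowest cluster was Follicular, at 4.33 (4.08 to 4.60) and 5.12 (4.83 to 5.42). Dst was at 0.913 (0.865 to 0.963) and 1.05 (1.00 to 1.11) CP10K in Basal. Differentiated cells held 67.8% (59.9 to 76.5) and 67.5% (59.1 to 76.9) of that level, the largest share of the 9 genes in both libraries. Unlike the others, Dst was lowest in the cycling cluster KC_Four, at 0.307 (0.252 to 0.371) and 0.435 (0.356 to 0.525) CP10K, or 33.7% (27.4 to 41.0) and 41.3% (33.6 to 50.2) of Basal.

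The laminin-332 chains followed different courses. Lamb3 stood at 1.17 (1.12 to 1.23) and 1.34 (1.29 to 1.40) CP10K in Basal, at 0.510 to 0.796 in Follicular, KC_Four and KC_Five, and at 0.134 (0.105 to 0.169) and 0.205 (0.162 to 0.256) in Differentiated. Differentiated cells thus held 11.4% (8.87 to 14.5) and 15.3% (12.002 to 19.2) of its basal level. Lama3 was at 0.611 (0.572 to 0.652) and 0.660 (0.620 to 0.702) CP10K in Basal. In the other 4 clusters it lay between 0.251 and 0.337, on 36 to 141 UMIs, and their intervals overlapped, so their order cannot be told. Its share in Differentiated, 43.5% (36.2 to 52.0) and 44.0% (35.8 to 53.7), lay above that of Lamb3 in both libraries. Col7a1, the anchoring fibril collagen, was at 0.959 (0.909 to 1.01) and 1.02 (0.966 to 1.07) CP10K in Basal. It was at 0.581 to 0.680 in the cycling clusters and at 0.292 to 0.385 in Follicular and Differentiated, whose intervals overlapped.

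**Figure D1:**
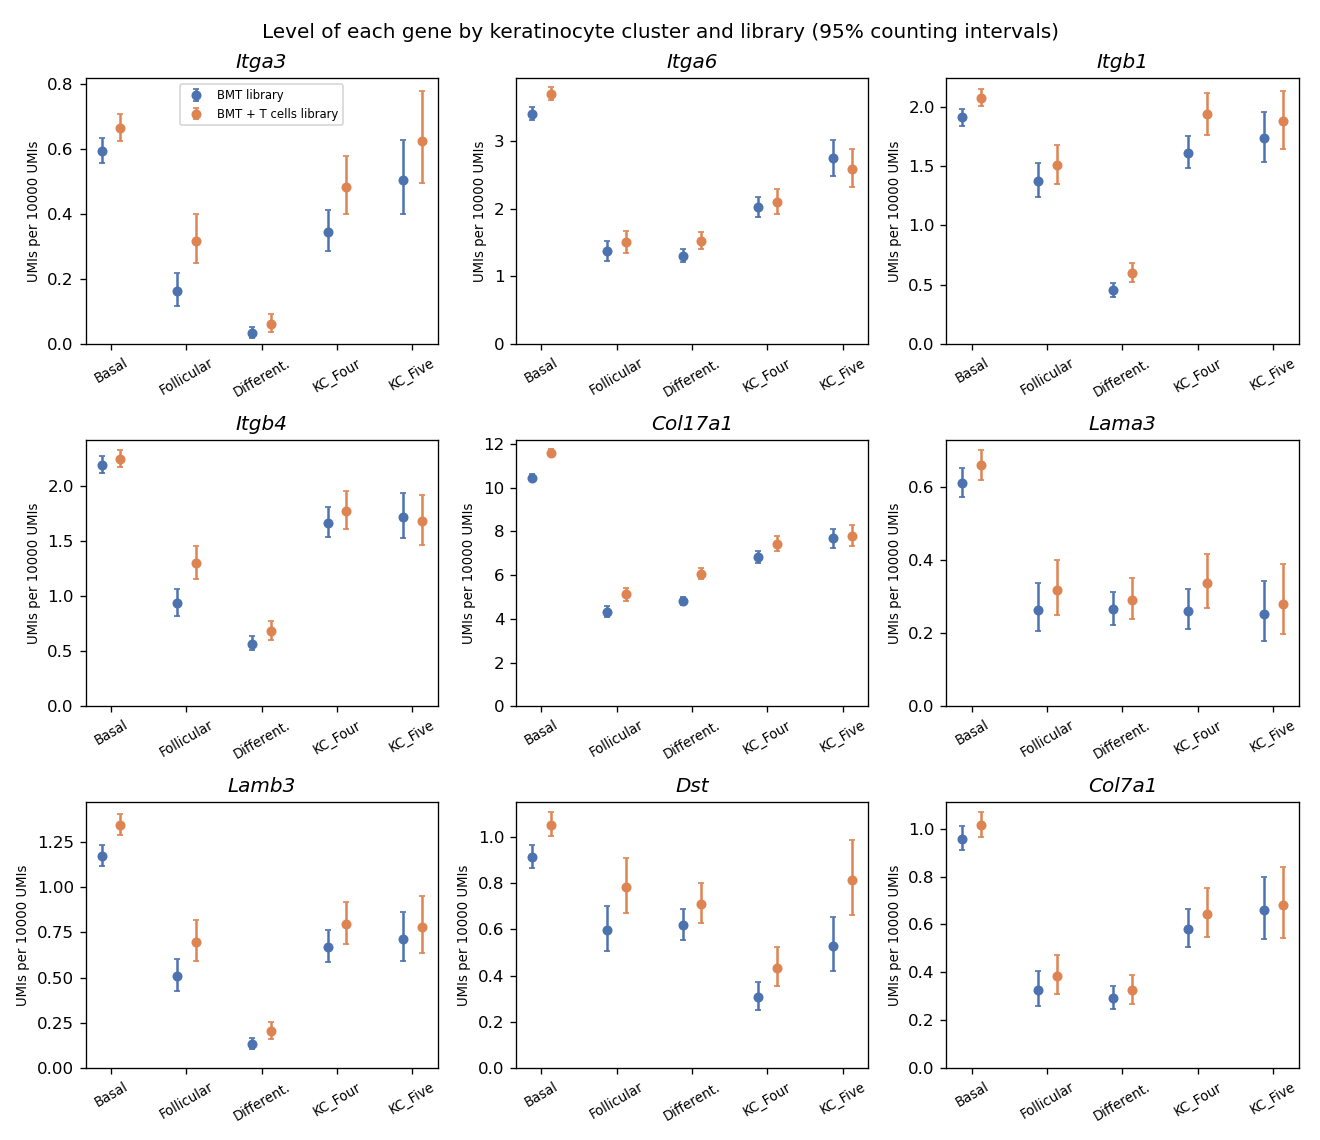
Level of each of the 9 genes (vertical axis, UMIs per 10000 UMIs) in the 5 keratinocyte clusters of the BMT and BMT + T cells libraries, with exact 95% counting intervals. Each panel is highest in Basal in both libraries, and Dst is lowest in KC_Four while Itga3 and Lamb3 are lowest in Differentiated.

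In both libraries all 9 genes were highest in Basal. Differentiated was the lowest cluster for 6 of them in BMT and 5 in BMT + T cells. Over the 9 genes together, Basal held 22.2 (22.0 to 22.4) and 24.3 (24.1 to 24.6) CP10K and Differentiated 8.50 (8.25 to 8.75) and 10.47 (10.1 to 10.8). KC_Five stood at 16.5 and 17.1, KC_Four at 14.3 and 15.9, and Follicular at 9.88 and 11.9. The clusters were made from these same cells, so these differences describe the clusters and are not tests.

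**Figure D2:**
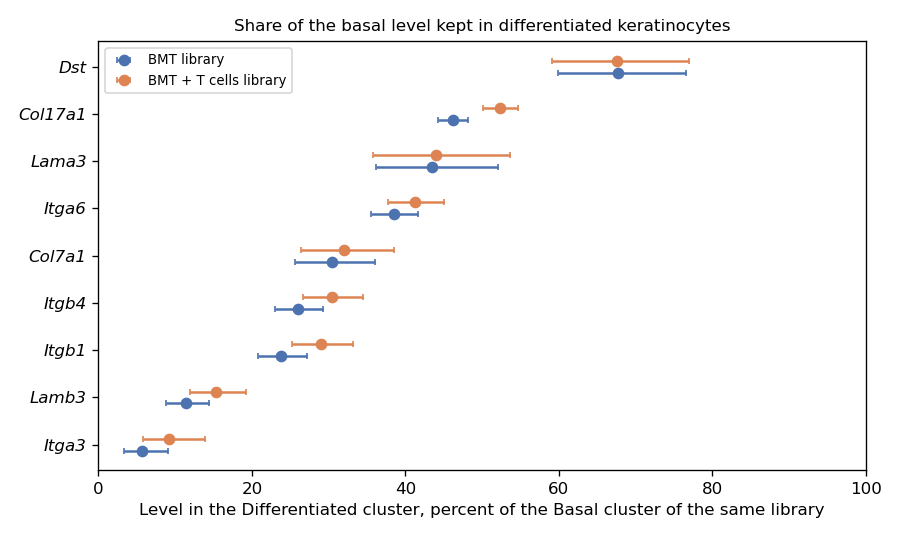
Level of each gene in the Differentiated cluster as a percent of its level in the Basal cluster of the same library (horizontal axis), with exact 95% counting intervals for the BMT and BMT + T cells libraries. Dst holds 67.8% and 67.5% of its basal level, and Itga3 holds 5.72% and 9.21%.

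A gene was counted as changed between clusters when it differed over 2-fold the same way in both libraries on log2(CP10K + 0.1), a scale that understates the change of genes at low levels. All 9 genes passed the filter, a mean of at least 0.1 CP10K over both clusters and libraries, for each pair of clusters. Over 2-fold higher in Basal than in Differentiated were 6 of the 9, Itga3, Itga6, Itgb1, Itgb4, Lamb3 and Col7a1, against 3.28% of the 7327 genes compared. The median log2 difference of the 9 was 1.43 in BMT and 1.39 in BMT + T cells, against 0.08 and 0.07 over all genes. Against Follicular there were 3 (Itga6, Col17a1 and Col7a1), beside 1.29% of 7781 genes, with medians of 1.14 and 0.86. In the BMT library alone 6 genes passed against Follicular, and in BMT + T cells 3. Against KC_Four, Dst alone passed, beside 0.579% of 7428 genes. Against KC_Five none of the 9 passed in both libraries, beside 0.42% of 7381 genes, with medians of 0.44 and 0.50. With a pseudocount of 1 CP10K in place of 0.1, none of the 9 passed against Differentiated and 1 passed against Follicular.

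Depth differed between clusters, from a median of 8053 UMIs per cell in Basal to 15889 in KC_Four of the BMT library, so shares of cells with a UMI were computed with each cell drawn down to 2500 UMIs, which left no cell out. Col17a1 was then detected in 88.9% and 89.7% of basal cells and in 62.8% and 69.2% of differentiated ones. Itga3 was detected in 14.6% and 15.6% of basal and 1.04% and 1.91% of differentiated cells. No cell type that should lack these genes was at hand in numbers in the keratinocyte libraries, so the background of free RNA in these shares was not measured. At least 1 of the 9 genes was detected in 98.1% of basal cells in both libraries, 78.8% and 83.0% of differentiated, 79.6% and 82.9% of follicular and 93.8 to 95.9% of cycling cells. At full depth, without the drawing down, it was 99.6% and 99.7% of basal and 96.3% of differentiated cells in both libraries. A basal cell held UMIs of a median of 6 of the 9 genes in both libraries, and a differentiated cell of 3 and 4. Drawn down to the same depth, the mean number of genes detected was 3.20 and 3.34 in Basal and 1.47 and 1.68 in Differentiated. All 9 were seen together in 72 basal cells of each library.

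Across basal cells, the levels of the 9 genes were weakly related. All 36 pairs had a Spearman coefficient above 0, with medians of 0.12 in BMT and 0.16 in BMT + T cells. The pairs of Col17a1 with the hemidesmosomal integrin genes stood highest, at 0.34 and 0.42 with Itga6 and 0.28 and 0.37 with Itgb4. Itga3 with Dst was lowest, at 0.03 and 0.02. These cells share a library and differ in depth, counts are sparse, and the coefficients are a description only.

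The authors' cell cycle calls divided the basal cells of the BMT library into 1042 in G1, 524 in S and 118 in G2M, and those of BMT + T cells into 1173, 452 and 87. Dst was lower in basal cells outside G1 in both libraries. In S it stood at 69.0% (61.0 to 77.9) and 64.8% (57.4 to 73.0) of its G1 level, and in G2M at 78.0% (63.4 to 95.3) and 67.8% (53.1 to 85.4). Lama3 was at 71.8% and 69.3% in G2M, Lamb3 at 77.2% and 68.5%, and Col17a1 at 85.2% and 85.0%. Itgb1 was not lower outside G1, at 103.7% (95.7 to 112.4) and 102.8% (95.1 to 111.1) in S and 119.6% (105.3 to 135.5) and 104.0% (89.5 to 120.3) in G2M. In S, 7 of the 9 genes had an interval below the G1 level in both libraries, beside 10.7% of 7423 genes, and the median log2 difference was -0.19 against -0.02 over all genes. In G2M there were 5 (Col17a1, Lama3, Lamb3, Dst and Col7a1), beside 7.09% of 7407 genes, with medians of -0.26 and -0.03. An interval clears the G1 level more readily for genes with more UMIs. The calls rest on other genes of the same cells, and median depth was 7457 and 7813 UMIs in G1 and 9588 and 9644 in S.

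The next comparison asks whether these genes differed between the labels. The differences were small and nearly all one way. Taken over the 5 clusters with equal weights, 0 of the 9 genes passed a 1.5-fold difference on log2(CP10K + 0.1), beside 0.687% of 7566 genes. With so few genes, a count of 0 cannot be told from such a share, here or in the single clusters below. All 9 lay above 0, with a median of 0.17 against -0.01 over all genes, of which 46.4% were above 0. The values were 0.35 for Itga3, 0.33 for Dst, 0.26 for Lamb3, 0.19 for Itgb1, 0.17 for Col17a1, 0.16 for Lama3, 0.15 for Itgb4, 0.11 for Col7a1 and 0.08 for Itga6. There is 1 library per label, so a difference between these libraries cannot be told apart from one between the treatments.

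Within Basal, 0 of the 9 passed, beside 0.981% of 7443 genes. Dst was at 1.15 times its BMT level (1.07 to 1.24), Lamb3 at 1.14 times (1.07 to 1.22), Itga3 at 1.12 times (1.02 to 1.23), Col17a1 at 1.11 times (1.09 to 1.13), and Itga6 and Itgb1 at 1.09 times each. These 6 intervals lay above 1, as did those of 14.6% of all genes, and the intervals of Itgb4, Lama3 and Col7a1 included 1. An interval clears 1 more readily for genes with more UMIs, here and in the phases and other clusters below. Of all genes 50.6% had a log2 difference above 0 in Basal. The libraries also differed in cell cycle calls, with 61.9% of basal cells in G1 in BMT and 68.5% in BMT + T cells. Among basal cells in G1 alone all 9 ratios were above 1, with a median log2 of 0.12 against 0.01 over all genes, of which 53.1% were above 0. There 5 intervals lay above 1, beside 12.4% of all genes. In S 8 ratios and 3 intervals were above 1, beside 46.8% of genes above 0 and 8.26% of intervals. In G2M 4 ratios and 1 interval were, beside 46.1% and 5.01%.

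In Follicular, Itga3 passed, at 1.96 times its BMT level (1.32 to 2.96) on 41 UMIs in BMT and 72 in BMT + T cells, beside 2.09% of 7931 genes. Itgb4 was at 1.38 times (1.16 to 1.65) there. In the same cluster the sebaceous marker Mgst1 was at 10.2 CP10K in BMT and 6.35 in BMT + T cells, and the part of sebaceous cells in the Itga3 ratio was not tested. In Differentiated 0 of the 8 genes that passed the filter passed the fold, beside 0.908% of 7051 genes. Itga3 was too low there to be compared. Col17a1 was at 1.26 times (1.19 to 1.33) in Differentiated, Itgb1 at 1.33 times (1.10 to 1.60) and Lamb3 at 1.53 times (1.10 to 2.15), which is under 1.5-fold once the pseudocount is added. In KC_Four 0 of 9 passed, beside 1.43% of 7205 genes, and in KC_Five 0 of 9, beside 3.1% of 7186 genes. Dst was at 1.54 times (1.14 to 2.08) in KC_Five, again under the fold with the pseudocount. Of the 45 pairs of a gene and a cluster, 43 had a ratio above 1, Itga6 and Itgb4 in KC_Five being the others, while 47.0 to 51.4% of all genes were above 0 in a cluster. Outside Basal, the interval lay above 1 for 5 of the 9 genes in Follicular (7.3% of all genes), 5 of the 8 that passed the filter in Differentiated (9.71%), 4 of 9 in KC_Four (6.97%) and 1 of 9 in KC_Five (5.3%). No interval lay below 1.

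**Figure D3:**
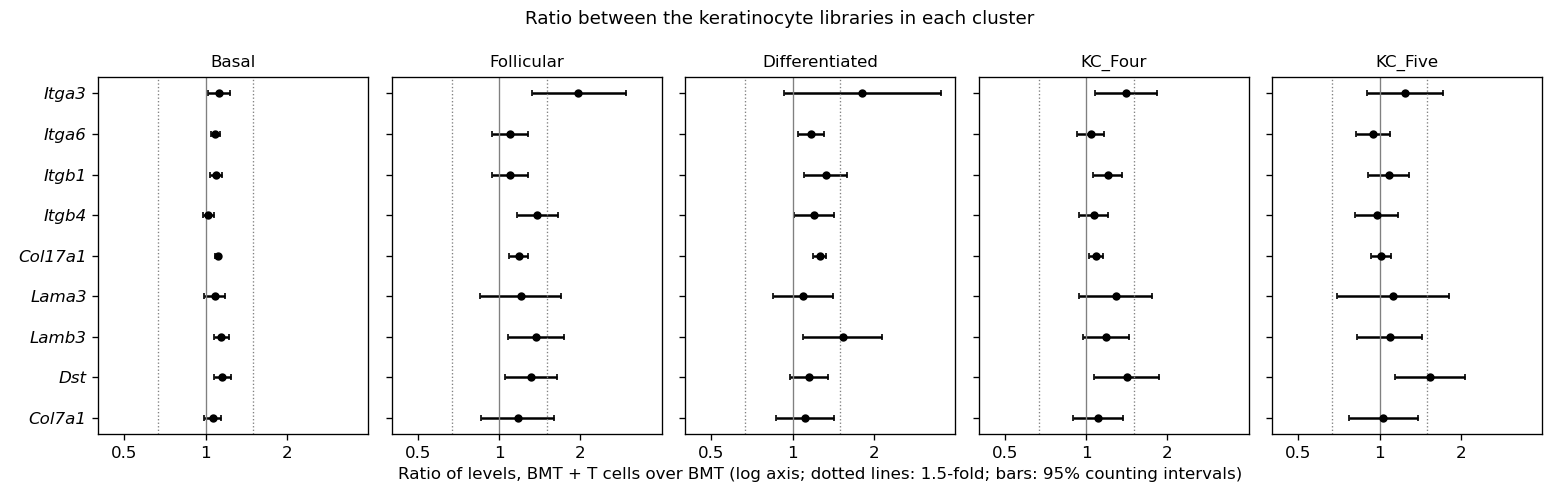
Ratio of the level in BMT + T cells to that in BMT (horizontal log axis) for each gene in each of the 5 clusters, with exact 95% counting intervals. The dotted lines mark 1.5-fold either way, and 43 of the 45 ratios lie above 1.

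Markers of other cell types were set beside these ratios. Cd74, an invariant chain of antigen presentation that is induced by interferon-gamma in many cells, was at 0.306 CP10K in Basal of BMT and 2.24 in that of BMT + T cells, while Cd207 and Cd3e were at most 0.00135 in both. With cells holding any marker of another cell type left out, 368 in BMT and 601 in BMT + T cells, the median log2 over the 9 genes was 0.22, and with Cd74 dropped from those markers it was 0.19.

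Of 47 other genes of the adhesion zone that were listed, 27 passed the filter between Basal and Differentiated. Over 2-fold higher in Basal in both libraries were 8, beside the 3.28% of all genes given above, and 1 was lower, beside 2.42%. Among those higher, Plec, the plectin that also links integrin β4 to keratin, differed by a log2 difference of 1.09 and 1.05. Cd151, a tetraspanin bound to laminin-binding integrins, was under the fold at 0.72 and 0.53. Agrn, the heparan sulfate proteoglycan agrin, was higher by 2.58 and 2.62, and Frem2, of the Fraser complex, by 1.28 and 1.45. Itga2, a collagen receptor chain, was higher by 1.82 and 1.60, and Lama5, of laminin-511, by 1.26 and 1.32. Bcam, a receptor for that laminin chain, was higher by 1.36 and 1.33, and Bmp1, a protease that trims procollagen VII and laminin, by 1.06 and 1.02. Itgb5, a partner of αv integrin, ran the other way, at -1.47 and -1.27. Of the focal adhesion genes, 4 passed the filter and were under the fold. Tln1, talin, was at 0.91 and 0.85, Fermt1, kindlin-1, at 0.87 and 0.82, Pxn at 0.70 and 0.73 and Ptk2 at 0.22 and 0.24. The medians over all genes were 0.08 and 0.07. With 4 genes and a share of 3.28% over all genes, a count of 0 cannot be told from that share. Among the collagen IV genes, Col4a5 was at 0.265 and 0.282 CP10K in Basal and Col4a6 at 0.279 and 0.321, with log2 differences over Differentiated of 0.68 and 0.78 for Col4a5 and 1.16 and 0.77 for Col4a6, both under the fold in at least 1 library. Col4a1 and Col4a2 and the linker gene Nid1 were at 0 to 0.00202 CP10K in Basal.

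Likeness of pattern was measured as Pearson's r over 10 profiles, 5 clusters in 2 libraries, which share cells' library and depth. Each gene was set against the mean of the other 8. Col7a1 was most like the rest at 0.96, followed by Itga6 at 0.93, Itgb4 and Lamb3 at 0.92, Itga3 at 0.90 and Col17a1 at 0.88. Itgb1 stood at 0.80, Lama3 at 0.72 and Dst at 0.30. Among 3073 other genes at a sufficient level, those most like the mean of the 9 were Wls, a carrier of Wnt proteins, at 0.97, Rac3, a small GTPase, at 0.96, Glud1, a glutamate dehydrogenase, at 0.95, Trip6, a LIM protein of adhesion sites, at 0.95 and Large2, a glycosyltransferase that acts on dystroglycan, at 0.93.

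The myeloid libraries give the level of the same genes outside keratinocytes. Donor CD11b+MHCII+ cells, sorted from the epidermis of such hosts, came as 3 libraries labelled BMT and 1 labelled BMT + T cells. Col17a1 was at 0.00559, 0.0322 and 0.0168 CP10K in the BMT libraries and 0.0191 in BMT + T cells. Itga3, Itgb4, Lama3, Lamb3 and Col7a1 were at most 0.00932 in each of the 4. Itga6 lay between 0.0838 and 0.191. Itgb1, whose product pairs with leukocyte α chains as well, was at 2.24, 2.64 and 1.92 CP10K in BMT and 1.85 in BMT + T cells, beside 1.91 and 2.08 in basal keratinocytes. Dst was also found in donor myeloid cells, at 1.39, 2.11 and 0.865 CP10K in BMT and 1.56 in BMT + T cells. In the cells the authors call resident monocyte-derived Langerhans cells it was at 3.06, 4.06 and 1.40, and at 2.04 in BMT + T cells, so these libraries overlapped between labels.

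The host CD11b+MHCII+ library, 781 cells under the label BMT, stood apart in Dst. It held 5114 Dst UMIs, or 9.95 CP10K (9.68 to 10.2), above each of the donor and keratinocyte libraries taken whole. These whole-library levels mix cell types, and 1791 of the host UMIs came from the 43 cells of cluster 5 described below. The host table gives 7 clusters by number. Cluster 5, of 43 cells at a median of 35812 UMIs, held Krt14 at 205 CP10K and Krt5 at 133, with Ptprc at 0.262 and Cd207 at 0.537, so its leading markers were those of keratinocytes and not of the myeloid sort. In it 8 of the 9 genes were within 2-fold of basal keratinocytes, beside 84.8% of the 8235 genes compared. Against the BMT library they ran from 0.854 times for Col7a1 to 1.39 times for Lama3. Col17a1 was at 1.22 times (1.16 to 1.28), Itga6 at 1.11 times (1.01 to 1.21) and Itgb4 at 1.13 times (1.01 to 1.26). Dst was at 12.01 CP10K, 13.2 times (12.3 to 14.1) the level in basal keratinocytes of BMT and 11.4 times (10.7 to 12.2) that of BMT + T cells. Of the genes compared, 80 (0.971%) were higher in cluster 5 by at least as much. In host cluster 1, of 276 cells, Dst was at 12.4 CP10K while the other 8 genes were over 2-fold lower than in basal keratinocytes, beside 27.9% of 9884 genes. There 394 genes (3.99%) were higher by at least as much as Dst. In cluster 3 it was at 10.96, in clusters 2 and 4 at 5.60 and 4.17, and in cluster 6, of 23 cells, at 0.343 (0.126 to 0.746) on 6 UMIs. Cluster 2 held the most Cd207, a Langerhans cell marker, at 20.2 CP10K, and clusters 4, 3 and 1 held it at 4.69, 2.75 and 1.72. The Dst levels of clusters 2 and 4 lay nearer those of the donor Langerhans cells given above than the whole host library did. Those of clusters 1 and 3 lay farther off. The share of genes higher by at least as much as Dst was 4.63% in cluster 3, 8.06% in cluster 2 and 15.1% in cluster 4. Cluster 7, of 18 cells, held the highest level, 21.6 CP10K (19.4 to 23.9) on 356 UMIs, with 77 genes (0.820%) higher by at least as much. It also held Itga6 at 4.85 CP10K, Itgb4 at 4.12 and Col7a1 at 2.42, with Krt14 at 17.1 and Ptprc at 0.667. Median mitochondrial content was 15.6% in host cluster 1, 2.91% in cluster 5, 23.9% in cluster 7 and 2.32% in basal keratinocytes of BMT. The tables were normalized separately, the host cells are 1 library, and the part of library and of RNA quality in the Dst level was not tested.

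**Figure D4:**
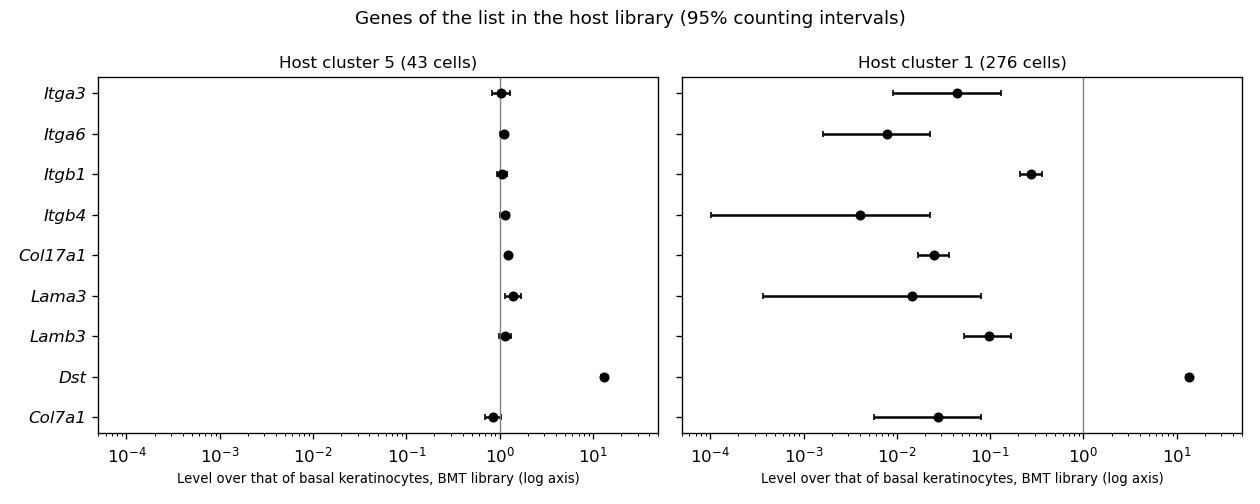
Level of each gene in host clusters 5 and 1 over its level in basal keratinocytes of the BMT library (horizontal log axis), with exact 95% counting intervals. In cluster 5 the genes other than Dst lie between 0.854 and 1.39 times, and Dst lies at 13.2 times, while in cluster 1 Dst alone lies above 1.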

How the data were processed

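Cells of mouse epidermis were measured with a 10x Genomics 5′ kit. Per the labels and the study's methods, the authors processed the reads with kallisto, bustools and Seurat, removed cells under 500 genes or over 20% mitochondrial reads and likely doublets, and clustered with the Leiden algorithm. The host and donor myeloid tables nevertheless held cells outside these limits. Their smallest cells had 257 and 292 UMIs, too few for 500 genes, and host cluster 7 had a median of 23.9% mitochondrial UMIs. No version was given in the sources used here. Doublets were not looked for again. Each deposited value was a natural log (ln): that of a gene's UMIs, scaled to 10000 per cell, after adding 1. The mitochondrial column deposited by the authors was in percent. Undoing the log gave whole UMIs for 100% of 15311900 keratinocyte values within 0.001. The keratinocyte libraries held 27817737 and 24959785 UMIs.

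UMIs were summed per library and deposited cluster and divided by the summed depth. Sums have exact Poisson intervals, ratios exact conditional binomial ones and shares Clopper-Pearson ones, all at 95%. Log2 values had 0.1 CP10K added, and a gene was compared if its mean over the groups compared reached 0.1 CP10K. Folds of 2 (clusters, in both libraries) and 1.5 (labels) were counted. Motifs were searched on both strands.

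The members were given by symbol. They, the 47 further genes and the markers were chosen with earlier results of these data known. Named beside the members are the further genes past 2-fold (at most 12, of which 1 is counted but not reported here by name), with the collagen, focal adhesion and Cd151 examples chosen after their values were seen, and the 5 most alike genes with at least 0.5 CP10K. Alternatives were other pseudocounts, filters, means, scalings, depths and sets of cells. The scripts ran in Python 3.11.15 with SciPy 1.17.1 and NumPy 2.4.6, tables were handled in pandas 2.3.3 and figures drawn in matplotlib 3.10.9, and the sums and intervals were tested on simulated data.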

Additional observations from a re-analysis of the deposited data

Results flagged for a closer look

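Dst in the host library was singled out because the report's main comparisons use the keratinocyte table alone, and its level in this other table, 9.95 CP10K (95% counting interval 9.68 to 10.2), lay above the donor myeloid libraries and every keratinocyte cluster. Of the 7 host clusters, 6 held it at 4.17 to 21.6 CP10K, among them the cluster with keratinocyte markers, and cluster 6 held it at 0.343. The cluster at 21.6 has 18 cells. There is 1 host library, and the difference was not tested.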

How the results depend on the processing

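The count of genes past 1.5-fold between labels was 0 in the main setting and in each of its 14 alternatives, with 9 of 9 genes above 0. A count of 0 of 9 cannot be told from the share over all genes, 0.687% in the main setting. The stricter filter, at 0.5 CP10K, could not have raised it. The median log2 was 0.10 to 0.23, except with means of the deposited ln values, where the median difference was 0.05 in ln units. Of these, the G1 cells alone and the exclusion that spared Cd74 were chosen after seeing the data. The counts past 2-fold depended on the pseudocount. Against Differentiated, 6 became 0 with 1 CP10K and 0 with means of the deposited ln values. Against Follicular, 3 became 1 and 1 in these settings, and 5 with 0.01 CP10K. Against the cycling clusters, 1 became 0 and 0, and 2 with 0.01 CP10K. A larger pseudocount and log means shrink differences of low genes by construction. The summed basal level was 24.0 (BMT) and 26.5 CP10K (BMT + T cells) as a mean over cells, and 25.03 in BMT + T cells without cells holding other markers. The share of cells with a UMI of any of the 9 genes follows depth: unthinned it was 99.6% and 99.7% in Basal and 96.3% and 96.3% in Differentiated, and at 5000 UMIs 99.9% and 99.9%, and 91.6% and 94.3%, over the cells that deep. No paired analysis was possible because each label has 1 keratinocyte library and no result comes from a test. Scaling by TMM had been planned only if counts were deposited, and it was not run on the recovered UMIs. Libraries were scaled by the median ratio over genes instead.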
